A study of Homo sapiens with 15 samples.

Results

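The comparison set H9 cells exposed to fine particulate matter at 1.4 µg/mL (FPM_IC50, 3 libraries) against cells given the vehicle (UNT, 3 libraries). It covered the genes with at least 1 CPM (counts scaled to a common library size, with TMM factors) in each of the 3 UNT libraries. These were 14598 of the 60675 genes in the table and of the 19012 genes tested. H9 is an established human embryonic stem cell line, recorded as wild type. All groups were carried toward the osteogenic lineage for 7 days: serum medium with 15% FBS from day 0, then, from day 5, ascorbic acid at 20.8 µg/mL, β-glycerophosphate at 0.1 mM and vitamin D3 at 1.2e-07 M. FPM_IC50 cultures had the particles in the medium from day 0 to day 7, and UNT cultures had DMSO at 0.1%. The labels call 1.4 µg/mL the IC50 of the material, based on protein. Values from 3 further groups of 3 libraries stand beside some results: FPM at 0.00062 µg/mL (FPM_IC25), and a NIST standard reference material at 0.003 µg/mL (SRM_IC25) and 5.9 µg/mL (SRM_IC50). All libraries come from 1 line, and whether replicates were grown as separate cultures is not in the labels. Every p-value thus rests on variation among these libraries alone, and that variation may be technical.

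Embryonic stem cells that leave the pluripotent state in serum form mixed cultures. Pluripotency factors such as OCT4, SOX2 and NANOG decline as cells enter the germ layers, neural and neural crest fates, or amnion-like and trophoblast-like fates, and osteoblast precursors arise from mesoderm or from neural crest. Airborne particles carry metals and polycyclic aromatic hydrocarbons, and the cell routes best known to answer them are the aryl hydrocarbon receptor, which switches on cytochrome P450 genes, and NRF2, which switches on antioxidant genes.

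Total counts ranged from 9.77 M to 19.5 M at FPM_IC50 and from 17.3 M to 20.1 M in UNT. A floor of 3 counts lay between 0.154 and 0.307 CPM at FPM_IC50 and between 0.149 and 0.173 CPM in UNT. Replicate pairs differed by more than sampling noise, with a chi-square per gene of at least 7.71. Markers of several fates were present in both groups. The summed level of 20 amnion and trophoblast genes was 2130 to 3160 CPM at FPM_IC50, against 2170 to 2540 CPM in UNT. For 16 pluripotency genes it was 1950 to 2350 CPM at FPM_IC50, against 2500 to 2730 CPM in UNT, and the groups did not overlap. SP7, a transcription factor that defines committed osteoblasts, stayed under 1 CPM on average in both groups (0.854 ± 0.313 at FPM_IC50, 0.817 ± 0.0693 in UNT, SD, n = 3 each) and was not a member. MEPE, a gene of mineralising bone cells, had no count in any of the 6 libraries. Of the 20 genes of the osteoblast list 15 were members, among them COL1A1, SPP1 and ALPL, and SOST, an osteocyte gene, had 1.071, 1.041 and 0.6337 CPM at FPM_IC50 and 1.144, 1.469 and 1.281 CPM in UNT. In bulk samples, fewer cells of a type and less RNA per cell cannot be told apart.

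The genes nearest the 1 CPM threshold show where membership ended. LINC01409 was just inside, with 1.948, 1.933 and 0.9053 CPM at FPM_IC50 and 1.592, 1.175 and 1.037 CPM in UNT. CD52 was just outside, with 1.461, 1.14 and 1.086 CPM at FPM_IC50 and 1.194, 0.9987 and 2.195 CPM in UNT. Because membership was set by the UNT level alone, genes that were under 1 CPM in UNT could not be counted however high they were at FPM_IC50.

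Reads from the strand opposite to an expressed gene were more frequent at FPM_IC50, which bears on every count below. Genes annotated as antisense took 1.21% ± 0.252 of counts at FPM_IC50 and 0.282% ± 0.0077 in UNT (SD, n = 3 each; exact two-sided permutation p = 0.1, the smallest that 3 against 3 allows). The groups did not overlap. MT-ND6, the sole messenger RNA of the mitochondrial light strand, stood at 1.25 ± 0.106 per 100 counts of heavy-strand messenger RNA at FPM_IC50 and at 0.281 ± 0.0548 in UNT (exact permutation p = 0.1). The 14598 members held 98.6% ± 0.266 of counts at FPM_IC50 and 99.7% ± 0.0153 in UNT. The raised antisense share was not particular to FPM_IC50. It ranged from 0.9419% to 1.268% in the FPM_IC25 libraries and from 0.2882% to 0.3193% in the SRM libraries. MT-ND6 stood at 0.9548 to 1.306 per 100 heavy-strand counts at FPM_IC25.

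For each member, the summed UNT level of opposite-strand genes that overlapped it or lay within 5 kb was divided by the member's own UNT level. Of 3624 members with a ratio of 1 or more, 337 were higher and 77 lower at FPM_IC50, which is 9.3% and 2.12%, or 11.4% in all. Above a ratio of 10, 194 of 1048 were higher and 11 lower. The steepest case was BEST1, a chloride channel gene whose exons overlap those of the ferritin gene FTH1 (GRCh38 chromosome 11, 61949821 to 61965515, plus strand). It had 501.3, 363.0 and 495.5 CPM at FPM_IC50, against 1.791, 1.116 and 2.317 CPM in UNT. All 3 FPM_IC50 libraries were far above all 3 UNT libraries, where the rule for naming it required only no overlap. The log2 fold change was 8.02 (SE 0.38, adjusted p = 4.15e-10, edgeR quasi-likelihood F test with Benjamini-Hochberg adjustment, as for every adjusted p of a gene). BEST1 counts equalled 32.7% of those of FTH1 at FPM_IC50 and 0.105% in UNT. SNX32 opposite CFL1 (log2 5.16), SNX22 opposite PPIB (5.15) and GPS2 opposite EIF5A (4.90) were the next in size. What share of these values came from the gene itself was not tested, so such members are uncertain and are kept apart. Some fell: CLGN, a chaperone of the germ line, was -0.82 on the log2 scale and ISLR, a gene of mesenchymal cells, was also at -0.82.

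**Figure D1:**
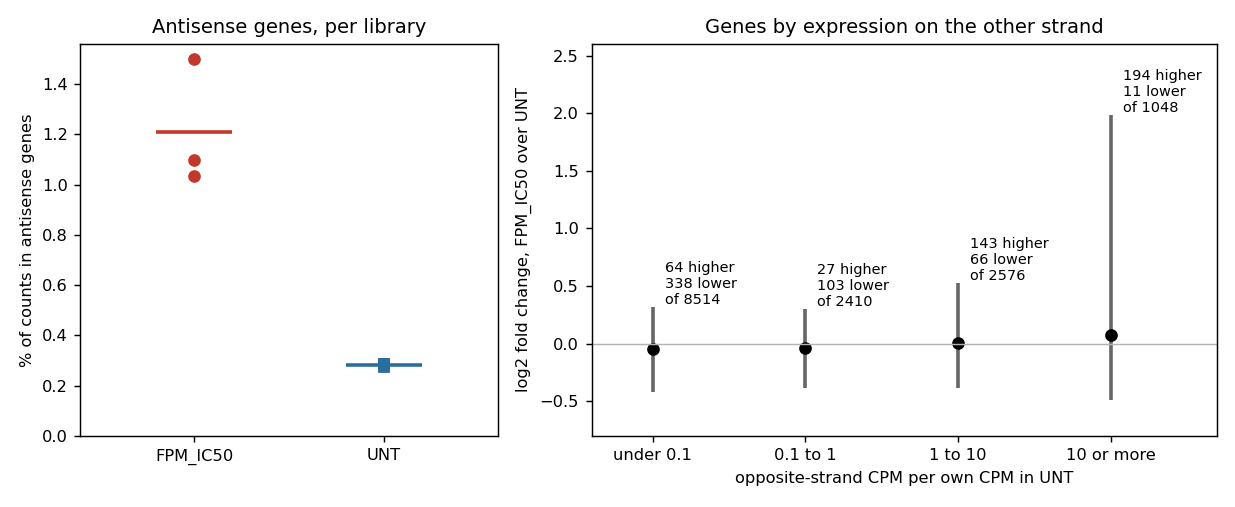
Left, the percentage of counts in antisense genes in each library (points; bar, mean), which averaged 1.21% at FPM_IC50 and 0.282% in UNT. Right, log2 fold change of FPM_IC50 over UNT for members grouped by opposite-strand expression per own expression in UNT (dot, median; line, 5th to 95th percentile), with the genes higher and lower at adjusted p under 0.05; higher genes outnumbered lower ones only at ratios of 1 or more.

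Across all members, 950 differed at an adjusted p under 0.05, 6.51% of those tested, with 431 higher (2.95%) and 519 lower (3.56%). Over all 19012 genes tested it was 13.6%, with 2058 higher (10.8%) and 527 lower (2.77%). Of the 4414 tested genes that were not members it was 37.0%, with 36.9% higher and 0.181% lower. The 8514 members with a ratio under 0.1, called here genes with little expression opposite, gave 402 differences (4.72%): 64 genes were higher (0.752%) and 338 lower (3.97%). Changes were small. The median log2 fold change was 0.47 for the higher and -0.37 for the lower genes, against -0.05 over all 8514, and beyond 2-fold there were 1 higher and 7 lower genes. The split between directions depended on scaling: with library factors taken from genes without an opposite-strand gene, 143 were higher and 136 lower, and over all members 632 were higher and 211 lower. The count depended on single libraries. Without UNT replicate 2 there were 16 higher and 103 lower genes, without UNT replicate 3 there were 40 higher and 173 lower, without FPM_IC50 replicate 2 there were 25 higher and 202 lower, and without UNT replicate 1 there were 129 higher and 536 lower. Of 67 called genes that the text draws by a fixed rule, 29 kept their call under every alternative, while 27 lost it without FPM_IC50 replicate 3 and 26 without UNT replicate 2. Where membership was set by the average of all 6 libraries instead, 69 were higher and 337 lower. The lower genes had a median GC content of 41.4% and a longest transcript of 3046 bases, the higher genes 57.8% and 4315 bases, and the genes not called 47.6% and 3948 bases. With a correction for GC content, 44 were higher and 218 lower.

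Genes of trophoblast were among those that rose at FPM_IC50. CYP19A1, the aromatase that makes oestrogens in the placenta (chromosome 15, 51208057 to 51338610, minus strand), had 29.61, 31.08 and 47.53 CPM at FPM_IC50, against 21.69, 18.68 and 22.93 CPM in UNT. The groups did not overlap, which was required of the genes named for the largest increases, this gene among them. FPM_IC50 replicate 3 was the highest library. In log2 units it was 0.77 higher (SE 0.16, adjusted p = 0.00241), and 0.53 higher (adjusted p = 0.0125) without that library. ERVW-1 encodes syncytin-1, a retroviral envelope that fuses trophoblast cells (chromosome 7, 92468380 to 92477986, minus strand). It had 6.818, 8.723 and 12.67 CPM at FPM_IC50, against 5.324, 3.877 and 4.939 CPM in UNT. Again every FPM_IC50 library was above every UNT library, by the same requirement, and replicate 3 was highest. The log2 fold change was 0.99 (SE 0.25, adjusted p = 0.0113). It was 0.73 (adjusted p = 0.0752) without FPM_IC50 replicate 3 and 0.86 (adjusted p = 0.0728) without UNT replicate 2.

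CGA encodes the alpha subunit of chorionic gonadotropin, the hormone of early pregnancy (chromosome 6, 87085498 to 87095406, minus strand). The window from 250 bases before to 50 bases after its RefSeq start (GRCh38.p14, chr6:87095057-87095356, minus strand, given 5′ to 3′ on that strand) is shown because the gene was among the most different between the exposures. Capitals mark TGACGTCA, the palindromic cAMP response element, which reads alike on both strands.
CGA: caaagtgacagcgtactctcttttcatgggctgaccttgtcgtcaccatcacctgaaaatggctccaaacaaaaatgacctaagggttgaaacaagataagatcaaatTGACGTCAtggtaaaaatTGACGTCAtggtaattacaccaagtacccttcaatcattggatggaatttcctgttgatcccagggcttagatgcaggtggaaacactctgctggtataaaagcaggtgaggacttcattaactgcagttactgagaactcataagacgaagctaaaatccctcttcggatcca
The element occurs 2 times in this window, and 1.85% of 35116 RefSeq promoter windows of the same length hold it at least once. A match is a description of the letters only. CGA had 55.42, 59.28 and 107.4 CPM at FPM_IC50, against 35.58, 40.36 and 57.62 CPM in UNT. The groups overlapped, with UNT replicate 3 above FPM_IC50 replicate 1. The difference was 0.73 in log2 units (SE 0.22, adjusted p = 0.0362), and it was 0.37 (adjusted p = 0.222) without FPM_IC50 replicate 3 and 0.66 (adjusted p = 0.156) without UNT replicate 2.

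SLC40A1, the iron exporter ferroportin, had 47.82, 60.27 and 71.88 CPM at FPM_IC50, against 40.1, 39.12 and 41.77 CPM in UNT. No libraries overlapped, and the log2 fold change of 0.57 (SE 0.12, adjusted p = 0.00302) was 0.43 (adjusted p = 0.0215) without FPM_IC50 replicate 3. GATA2, a transcription factor of trophoblast and blood progenitors, named because it was the last called member of its list, had 54.74, 68.45 and 81.02 CPM at FPM_IC50, against 46.92, 45.76 and 56.47 CPM in UNT. These groups overlapped, and the log2 fold change was 0.45 (adjusted p = 0.0389), or 0.31 (adjusted p = 0.184) without FPM_IC50 replicate 3. In all, 5 of the 20 amnion and trophoblast genes rose and none fell, where 2.95% of members rose. Without FPM_IC50 replicate 3, and also without UNT replicate 2, 2 of 20 rose. The list's median log2 fold change was 0.18, against -0.03 over all members, with 17 of 20 above 0. The list was chosen with earlier results of these libraries known, so its direction is not independent evidence. The members not called, named here after their values were seen, included GCM1, the factor that drives trophoblast fusion (0.53), the second syncytin gene ERVFRD-1 (0.64, with opposite-strand expression), the keratin gene KRT7 (0.26), GABRP (0.18) and GATA3 (0.01).

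**Figure D2:**
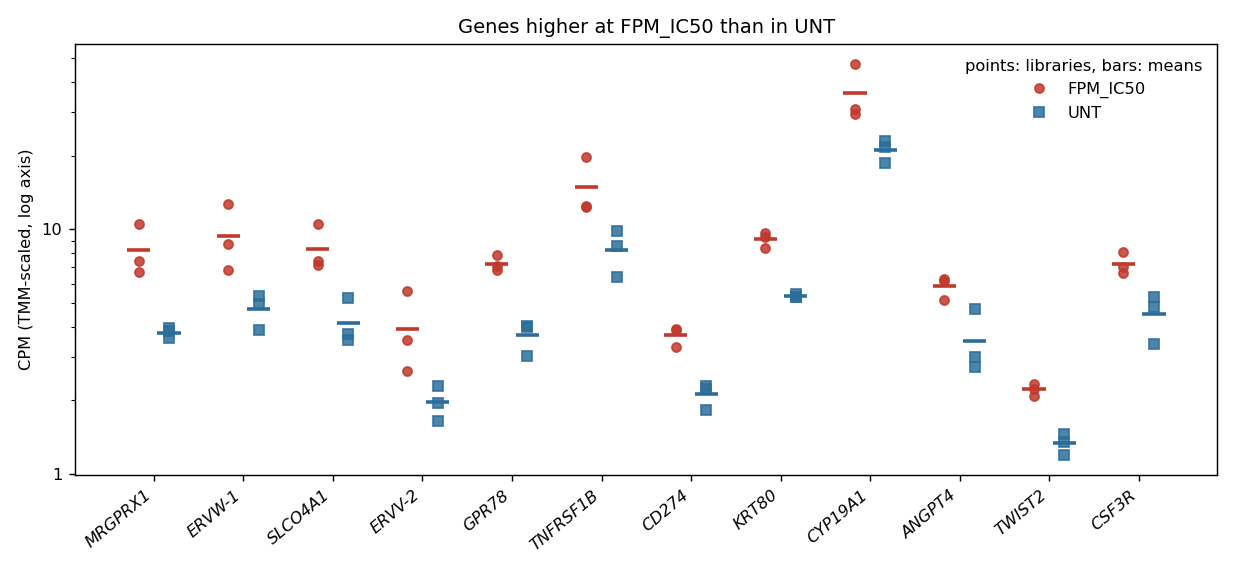
CPM on a log axis in each library for the 12 genes, pseudogenes, clones and antisense transcripts left out, with little expression opposite, no overlap between groups and the largest increases at FPM_IC50 (circles, FPM_IC50; squares, UNT; bars, means of 3). FPM_IC50 replicate 3 was the highest of its group in ERVW-1 (12.67 CPM) and CYP19A1 (47.53 CPM).

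Several others of the 12 genes named for their increase encode receptors. MRGPRX1, a receptor best known from sensory neurons, had 7.402, 6.691 and 10.5 CPM at FPM_IC50, against 3.831, 3.936 and 3.598 CPM in UNT (log2 1.1, SE 0.22, adjusted p = 0.00149). GPR78, an orphan receptor, had 6.818, 7.831 and 7.061 CPM at FPM_IC50, against 4.03, 3.995 and 3.049 CPM in UNT (log2 0.97, adjusted p = 0.000738). TNFRSF1B, a receptor for tumour necrosis factor, had 12.47, 12.39 and 19.73 CPM at FPM_IC50, against 8.558, 6.403 and 9.817 CPM in UNT (log2 0.84, adjusted p = 0.00355). In these 3 genes all FPM_IC50 libraries exceeded all UNT libraries, as the choice of the 12 required. Their calls held without any single one of the 6 libraries. CSF3R, the receptor of granulocyte colony-stimulating factor, was 0.68 (adjusted p = 0.0207, but 0.0819 without FPM_IC50 replicate 3 and 0.125 without UNT replicate 2).

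SLCO4A1, an organic anion transporter, had 7.402, 7.137 and 10.5 CPM at FPM_IC50, against 5.225, 3.525 and 3.72 CPM in UNT (log2 0.99, adjusted p = 0.00203). KRT80, a keratin of epithelia, had 8.376, 9.615 and 9.324 CPM at FPM_IC50, against 5.274, 5.463 and 5.305 CPM in UNT (log2 0.77, adjusted p = 0.00148). Both kept their call when any single library was left out. ERVV-2, a placental retroviral envelope gene, was 0.98 on the log2 scale (adjusted p = 0.0118), CD274, which encodes the immune checkpoint ligand PD-L1, 0.81 (0.0118), ANGPT4, an angiopoietin, 0.75 (0.037), and TWIST2, a factor of mesenchyme, 0.73 (0.0288). Each of these 4 lost its call when at least 1 of the 6 libraries was left out.

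Of 16 pluripotency members, 4 fell at FPM_IC50 and 12 did not pass the test. SOX2 (chromosome 3, 181711924 to 181714436, plus strand), which serves both pluripotent and neural progenitor cells, had 107.7, 80.59 and 84.37 CPM at FPM_IC50, against 126.7, 131.2 and 122.1 CPM in UNT. The groups did not overlap. The log2 change of SOX2 was -0.48 (SE 0.11, adjusted p = 0.00494). TERF1, which encodes a telomere-binding protein that is abundant in stem cells, had 56.98, 57.64 and 57.21 CPM at FPM_IC50, against 70.01, 83.12 and 77.32 CPM in UNT (log2 -0.42, adjusted p = 0.000613). The gene for PRDM14, which represses lineage genes in stem cells, had 1.169, 2.528 and 1.629 CPM at FPM_IC50, against 3.583, 4.171 and 2.561 CPM in UNT. Its highest FPM_IC50 library lay just under its lowest UNT library. The log2 fold change was -0.87 (SE 0.27, adjusted p = 0.043), with an adjusted p of 0.121 without FPM_IC50 replicate 3 and of 0.187 without UNT replicate 2. The groups of TERF1 did not overlap. LIN28A, which blocks let-7 microRNA processing, had 646.5, 867.6 and 735.5 CPM at FPM_IC50, against 932.3, 980.1 and 946.9 CPM in UNT (log2 -0.35, adjusted p = 0.032), and lost its call without FPM_IC50 replicate 1 or 3 or without UNT replicate 2 or 3.

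These were the 4 called genes, with none higher, where 3.56% of members fell. The list median was -0.32 and 15 of 16 members were below 0. Scaling from genes with no opposite-strand gene left 2 calls, and so did leaving out FPM_IC50 replicate 1, FPM_IC50 replicate 3 or UNT replicate 2. POU5F1, which encodes OCT4, had 149.0, 184.5 and 201.1 CPM at FPM_IC50, against 188.8, 252.4 and 254.8 CPM in UNT, and the groups overlapped (log2 -0.38, adjusted p = 0.185). NANOG had 4.091, 5.749 and 4.345 CPM at FPM_IC50, against 4.826, 6.932 and 6.098 CPM in UNT, also with overlap (log2 -0.30, adjusted p = 0.349). ZFP42, which encodes REX1 (-0.05, adjusted p = 0.81), and the DNA methyltransferase gene DNMT3B (0.02, adjusted p = 0.948) lay near 0.

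Several of the 12 genes named for their decrease are neural. NEFM, the medium neurofilament subunit of axons (chromosome 8, 24913012 to 24919098, plus strand), had 6.136, 7.98 and 6.789 CPM at FPM_IC50, against 11.64, 13.92 and 14.45 CPM in UNT. Every FPM_IC50 library was lower than every UNT library, as the choice of the 12 required. The log2 change of NEFM was -0.91 (SE 0.19, adjusted p = 0.00196), and the call held without any single library. GAP43, a growth cone protein, had 21.62, 17.84 and 17.02 CPM at FPM_IC50, against 28.31, 31.37 and 32.44 CPM in UNT (log2 -0.71, adjusted p = 0.0182). It lost its call without FPM_IC50 replicate 2 or 3 or without UNT replicate 2 or 3. The neuron list had these 2 of 17 members lower (against 3.56% of all members) and none higher (against 2.95%). All 17 were below 0, with a median of -0.20. ELAVL4, an RNA-binding protein of neurons, was at -0.79 but did not pass the test (adjusted p = 0.256).

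FABP7, a lipid-binding protein of radial glia, had 13.64, 7.98 and 9.958 CPM at FPM_IC50, against 15.47, 18.27 and 19.33 CPM in UNT (log2 -0.77, adjusted p = 0.00494). S100B, a calcium-binding protein of glia, had 1.656, 1.289 and 0.9958 CPM at FPM_IC50, against 2.886, 2.467 and 2.805 CPM in UNT (log2 -1.06, adjusted p = 0.0101). SYT4, a synaptotagmin of neuronal vesicles, had 1.071, 1.09 and 1.448 CPM at FPM_IC50, against 2.14, 2.82 and 2.073 CPM in UNT (log2 -0.97, adjusted p = 0.00559). The groups did not overlap in any of these 3 genes, and S100B lost its call without FPM_IC50 replicate 2. LHFPL4, which organises inhibitory synapses, was -0.96 (adjusted p = 0.0162), and DLX1, a homeobox gene of forebrain interneurons, was -0.86 (0.00967), and both lost their call without FPM_IC50 replicate 3. Of all members 3.56% fell, and the next counts, of 1 gene in each list, lie near that share. In the neuroectoderm list 1 of 21 members fell, which was SOX2, with a median of -0.24 and 19 below 0. The neural crest list had 1 of 22 lower, NR2F1 (-0.37, adjusted p = 0.046, lost under 5 of the 6 single libraries left out), with a median of -0.15 and 20 below 0.

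Pseudogenes, clones and antisense transcripts were left out of the 12 genes named in each direction, and 3 pseudogenes among the lower members, seen afterwards, had changes as large: PTMAP5 (-2.19), RPL7P9 (-1.32) and NPM1P27 (-0.87). Of the 12 genes named, ITGB2, the beta subunit of leukocyte integrins, had the largest decrease, at 0.6818, 0.4461 and 0.1811 CPM at FPM_IC50, against 1.343, 1.057 and 1.098 CPM in UNT. Its UNT libraries lay just above the membership threshold and FPM_IC50 replicate 3 was near the floor of 3 counts. The log2 fold change of -1.42 (SE 0.39, adjusted p = 0.0197) lost its call without FPM_IC50 replicate 2, FPM_IC50 replicate 3 or UNT replicate 1. The other genes of these 12 were ANKRD18B (-0.92), DNAJC12 (-0.90), which encodes a co-chaperone of aromatic amino acid hydroxylases, SCRG1 (-0.80) and CCDC112 (-0.75). Of them CCDC112 kept its call under every library left out.

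**Figure D3:**
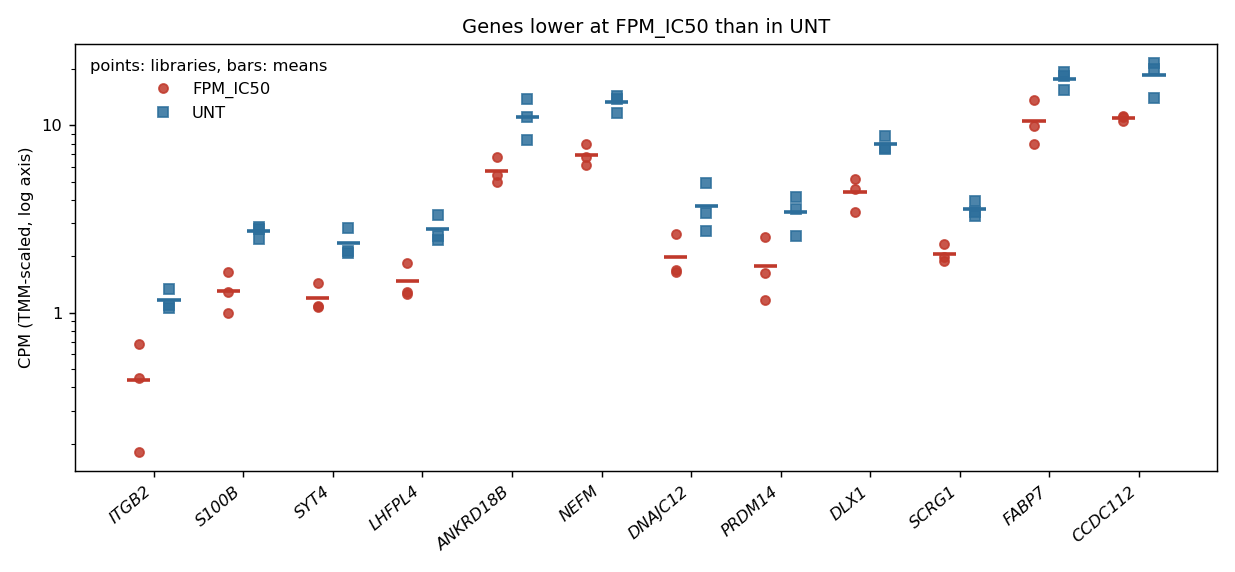
CPM on a log axis in each library for the 12 genes, pseudogenes, clones and antisense transcripts left out, with little expression opposite, no overlap between groups and the largest decreases at FPM_IC50 (circles, FPM_IC50; squares, UNT; bars, means of 3). ITGB2 lies nearest the floor, with 0.1811 CPM in FPM_IC50 replicate 3.

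Of the 17 heat shock members, 7 fell (against 3.56% of all members) and 1 rose (against 2.95%), and the median was -0.26. Among the 11 with little expression opposite, 4 fell (against 3.97% of such genes) and 1 rose (against 0.752%), with a median of -0.23. HSP90AA1, the inducible cytosolic HSP90, had 1218, 1414 and 1393 CPM at FPM_IC50, against 1583, 2017 and 1982 CPM in UNT. The groups did not overlap, and the log2 fold change was -0.47 (SE 0.12, adjusted p = 0.0112). HSP90AB1, the constitutive form, had 1873, 1933 and 2013 CPM at FPM_IC50, against 2331, 2616 and 2671 CPM in UNT (log2 -0.39, adjusted p = 0.0114). HSPD1, the mitochondrial chaperonin HSP60, had 624.4, 651.7 and 664.3 CPM at FPM_IC50, against 786.7, 1000.0 and 888.8 CPM in UNT (log2 -0.46, adjusted p = 0.00313). HSP90AA1 lost its call without FPM_IC50 replicate 1, UNT replicate 2 or UNT replicate 3, and HSPD1 under none of these. HSPD1, opposite HSPE1, had a ratio of 0.141 and was not among the 11. HSPB8, a small heat shock protein that works with BAG3 in selective autophagy, rose, with 53.08, 56.11 and 74.96 CPM at FPM_IC50, against 40.25, 39.53 and 43.96 CPM in UNT (log2 0.57, adjusted p = 0.00454).

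DNAJA1 (-0.36), CRYAB (-0.57, with an expressed opposite gene), HSPH1 (-0.28) and HSF2 (-0.26) were the other genes that fell. Without UNT replicate 2 or without UNT replicate 3, 2 members fell, with only the compared libraries 3 fell, and with scaling from genes without an opposite-strand gene, or without FPM_IC50 replicate 1 or 2, 4 fell. The constitutive HSPA8, at 1397 to 1640 CPM at FPM_IC50 and 1645 to 1773 CPM in UNT (-0.19, adjusted p = 0.238), and the stress-inducible HSPA1A (-0.38, adjusted p = 0.122) and DNAJB1 (0.03) did not pass the test. Over the same UNT libraries, the log2 fold change of HSP90AA1 was -0.47 at FPM_IC50, -0.47 at FPM_IC25, -0.53 at SRM_IC25 (adjusted p = 0.027) and -0.04 at SRM_IC50. The decrease was thus not particular to FPM. Among 21 genes of the unfolded protein and integrated stress responses, 3 fell (against 3.56% of all members) and none rose (against 2.95%). The 3 were HSP90B1, the HSP90 of the endoplasmic reticulum (-0.42, adjusted p = 0.00716), and the amino acid synthesis genes ASNS (-0.35, 0.00551) and PSAT1 (-0.24, 0.0369). The reticulum chaperones HSPA5 (-0.25, 0.131) and CALR (-0.09, 0.699) did not pass. ASNS kept its call under every library left out, and HSP90B1 lost it without UNT replicate 2.

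Of the 13 mitochondrially encoded messenger RNAs, 3 fell at FPM_IC50, where 3.56% of all members fell. The 3 come from the heavy strand, as do all of the 13 but MT-ND6. MT-ATP6, a subunit of ATP synthase, had 1948, 2320 and 2460 CPM at FPM_IC50, against 3147, 3668 and 3452 CPM in UNT. All FPM_IC50 libraries were lower than all UNT libraries, and the log2 fold change of -0.61 had an SE of 0.14 (adjusted p = 0.00599). MT-CO2, a subunit of cytochrome c oxidase, was -0.59 (adjusted p = 0.00749) and MT-ATP8 was -0.65 (0.00844), which lost its call without FPM_IC50 replicate 1 or UNT replicate 3. Of the 13 in all, MT-ND6 alone rose (1.80, with heavy-strand genes opposite), and the median was -0.31. MT-ND4L, at 0.10, was the other of the 2 above 0. The summed level of the 13 was 29300 to 32700 CPM at FPM_IC50, against 38000 to 40600 CPM in UNT. Over the same UNT libraries, 5 of the 13 fell and 1 rose at FPM_IC25, with a median of -0.38. MT-ATP6 was -0.66 and MT-ND6 1.57 at FPM_IC25, so these changes were not particular to FPM_IC50. The list median was -0.12 at SRM_IC25 and 0.06 at SRM_IC50. Nuclear genes of oxidative phosphorylation had none of 31 called and a median of -0.25. Ribosomal protein genes had all 34 members below 0 and a median of -0.29, but only RPL11 passed the test (-0.41, adjusted p = 0.0349). It kept its call only without UNT replicate 1 among the 6 single libraries left out. Short transcripts tended to be lower at FPM_IC50: across the 8514 genes, transcript length and log2 fold change had a Spearman rho of 0.35, a description across genes that share libraries. The part of length in these lists was not tested.

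Genes of the osteogenic programme did not pass the test. None of the 15 osteoblast lineage members was called, and the median was -0.09. ALPL, the alkaline phosphatase that releases phosphate for mineral, had 82.79, 74.54 and 71.06 CPM at FPM_IC50, against 97.03, 85 and 82.99 CPM in UNT. These groups just failed to overlap, and the log2 fold change was -0.22 (SE 0.09, adjusted p = 0.137). COL1A1, the main collagen of bone, had 203.2, 299.6 and 239.5 CPM at FPM_IC50, against 251.7, 232.6 and 208.1 CPM in UNT, with overlap (log2 0.10, adjusted p = 0.762). SPP1, which encodes osteopontin, was -0.31 (adjusted p = 0.297). RUNX2, the master factor of osteoblasts, was 0.13 (adjusted p = 0.766), with opposite-strand expression from SUPT3H above its own. Among 34 collagen and matrix genes none was called and the median was 0.09. In the BMP and TGF-beta list GREM1, a BMP antagonist, fell (-0.40, adjusted p = 0.0018) and TGFB1, whose opposite neighbour HNRNPUL1 is expressed above it, rose (0.80, 7.98e-06).

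The receptor route for aromatic hydrocarbons gave no call. CYP1A1, its most used readout, is shown by its promoter window because it did not pass the test: 250 bases before to 50 bases after the RefSeq start (GRCh38.p14, chr15:74725479-74725778, minus strand, given 5′ to 3′ on that strand). Capitals mark GCGTG, the core of the element that the receptor with ARNT binds, searched on both strands.
CYP1A1: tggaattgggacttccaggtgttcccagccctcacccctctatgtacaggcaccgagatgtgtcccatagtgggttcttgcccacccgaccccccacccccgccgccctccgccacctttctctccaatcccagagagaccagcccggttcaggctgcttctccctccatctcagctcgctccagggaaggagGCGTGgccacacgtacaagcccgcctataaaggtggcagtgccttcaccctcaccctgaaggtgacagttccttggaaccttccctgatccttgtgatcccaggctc
It occurs 1 time in this window, and 36.5% of the 35116 windows hold it, so a match of this length is common. CYP1A1 had 5.747, 7.385 and 7.785 CPM at FPM_IC50, against 6.07, 7.284 and 6.22 CPM in UNT. The groups overlapped, and the log2 fold change was 0.11 (SE 0.19, adjusted p = 0.796). CYP1B1 was -0.08 (SE 0.14) and AHR itself was 0.00 (SE 0.11). None of the 8 members of the list was called, and the median was 0.05.

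Antioxidant genes were likewise not called, with none of 19 NRF2 target genes passing and a median of -0.10. HMOX1, the heme oxygenase, had 28.44, 30.88 and 40.47 CPM at FPM_IC50, against 26.17, 24.44 and 31.28 CPM in UNT, with overlap (log2 0.28, SE 0.15, adjusted p = 0.25). NQO1 was -0.28 (SE 0.15, adjusted p = 0.276). Metallothionein genes had none of 8 called and a median of 0.02.

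**Figure D4:**
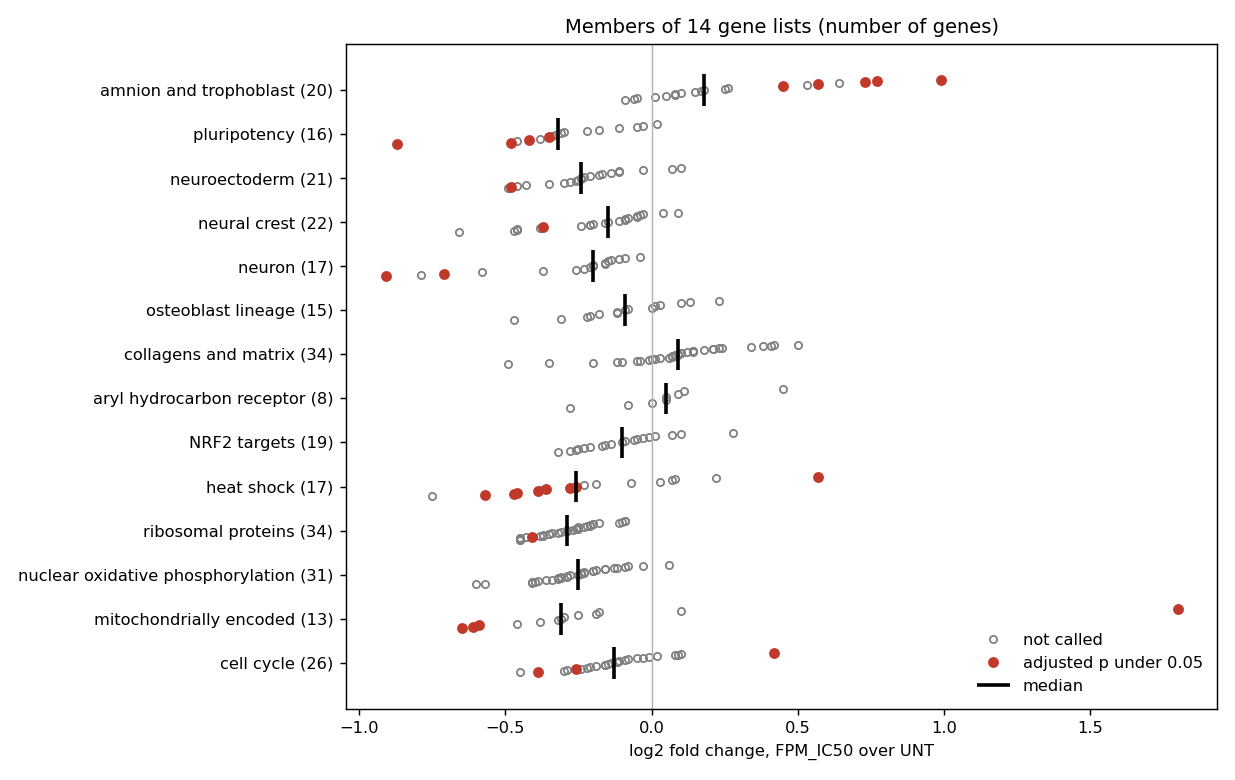
Log2 fold change of FPM_IC50 over UNT for each member of 14 gene lists (circles; filled, adjusted p under 0.05; bar, list median; number of members in brackets). The amnion and trophoblast median was 0.18, the pluripotency median -0.32, and the isolated point at 1.80 is MT-ND6.

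The remaining lists held few calls. Of all members 3.56% fell and 2.95% rose, and a count of 1 among 17 to 26 genes lies near these shares. Among 26 cell cycle genes, CCNB2 (-0.39, adjusted p = 0.00446) and TOP2A (-0.26, 0.0446), which act at mitosis, fell, and CCNE2 (0.42, 0.046), opposite the more highly counted INTS8, rose. Among 23 cholesterol synthesis genes, INSIG1 (-0.41, 0.00353) and HMGCS1 (-0.28, 0.0293) fell. CCNG1 fell among 22 p53 target genes (-0.42, 0.00744), SP5 among 22 WNT genes (-0.50, 0.046), and the chemokine receptor gene CXCR4 among 3 members of primitive streak and endoderm (-0.53, 0.0251). TNFAIP3, an inhibitor of NF-kappaB signalling, rose among 18 inflammation genes (0.39, 0.0194). The imprinted RNA H19 rose (0.39, 0.02) among 17 imprinted genes, and TWIST2 was the 1 gene to rise among 15 of mesenchymal transition. The calls of INSIG1, CCNB2, CCNG1 and GREM1 held under every library left out, while those of TOP2A, CCNE2, HMGCS1, SP5, CXCR4, TNFAIP3, H19 and PSAT1 were each lost under at least 3. In 4 lists the called gene had an expressed opposite neighbour: CNMD fell in the cartilage list (-0.59), H2AC11 fell among histones (-0.93), TRPV6 rose in the vitamin D list (0.59) and ANKRD37 rose in the glycolysis and hypoxia list (0.96). Lists of lateral plate and cardiac mesoderm, paraxial mesoderm, simple epithelium, FGF and ERK, Notch, retinoid, HOX, endothelium and blood, and skeletal muscle genes had none called, with medians between -0.09 and 0.07.

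The doses of the particle were set against each other directly, with FPM_IC50 over FPM_IC25. Of the 14598 members 2 differed (0.0137%), and both were lower at FPM_IC50. DLX1 had 5.162, 4.56 and 3.44 CPM at FPM_IC50, against 9.363, 16.34 and 9.343 CPM at FPM_IC25 (log2 -1.41, SE 0.21, adjusted p = 0.0411). PRRX1, a homeobox gene of limb and craniofacial mesenchyme, had 7.792, 8.723 and 6.065 CPM at FPM_IC50, against 12.96, 20.19 and 16.62 CPM at FPM_IC25 (log2 -1.14, SE 0.16, adjusted p = 0.0411). The groups did not overlap in either gene, which the rule for naming them required. No member was called, however, when any FPM_IC50 library was left out. At an unadjusted p under 0.05 there were 569 members, and DESeq2 called 13 higher and 26 lower. Against the same UNT libraries, DLX1 was -0.86 at FPM_IC50 and 0.56 (adjusted p = 0.0617) at FPM_IC25, and NEFM was -0.91 at FPM_IC50 and 0.01 at FPM_IC25. The direct difference for NEFM was -0.92 (SE 0.19, adjusted p = 0.142). For CYP19A1 it was 0.36 (SE 0.16, adjusted p = 1.0) and for SOX2 0.17 (SE 0.11, adjusted p = 1.0). With the doses at 1.4 and 0.00062 µg/mL, list medians over UNT were 0.18 at FPM_IC50 and 0.20 at FPM_IC25 for amnion and trophoblast, -0.32 at FPM_IC50 and -0.40 at FPM_IC25 for pluripotency, and -0.20 at FPM_IC50 and 0.10 at FPM_IC25 for neurons. The 2 sets of values share the UNT libraries.

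FPM_IC50 and SRM_IC50 differed far more, at the same inhibitory level but at 1.4 against 5.9 µg/mL. Of the 8514 genes with little expression opposite 3231 differed (37.9%), 1428 higher (16.8%) and 1803 lower (21.2%) at FPM_IC50. Over all members it was 36.2%, with 2524 higher and 2767 lower. With scaling from genes that have no opposite-strand gene, 1740 were higher and 1395 lower. All 20 amnion and trophoblast genes were higher at FPM_IC50 than at SRM_IC50, with a median difference of 2.81 on the log2 scale. Over UNT, the median of these 20 was 0.18 at FPM_IC50, 0.03 at SRM_IC25 and -2.59 at SRM_IC50. All 20 were called lower than UNT at SRM_IC50 and none at SRM_IC25. The gap thus holds for SRM_IC50 and not for both doses of SRM. CYP19A1 had 29.61, 31.08 and 47.53 CPM at FPM_IC50, against 0.7119, 0.7125 and 0.7033 CPM at SRM_IC50, a log2 difference of 5.65 (SE 0.24, adjusted p = 2.33e-10). CGA differed by 6.53 (SE 0.34, adjusted p = 5.9e-10), with 0.82 ± 0.132 CPM at SRM_IC50. ERVW-1 averaged 0.0812 CPM, ERVV-2 0.0283 CPM and MRGPRX1 0.0971 CPM at SRM_IC50, at or under the floor of 3 counts. Their fitted differences of 7.03, 6.66 and 6.28 thus depend on the prior count of the fit.

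Pluripotency genes had the opposite order, with 13 of 16 lower at FPM_IC50 than at SRM_IC50, none higher and a median of -1.40. Over UNT, the median of these 16 was -0.32 at FPM_IC50, -0.31 at SRM_IC25 and 1.03 at SRM_IC50. The contrast therefore holds for SRM_IC50 and not for both doses of SRM. PRDM14 had 1.169, 2.528 and 1.629 CPM at FPM_IC50, against 26.21, 21.63 and 20.75 CPM at SRM_IC50 (log2 -3.60, SE 0.24, adjusted p = 8.65e-09). LRAT, which stores retinol as esters (-3.02), FGFBP3, a carrier of fibroblast growth factors (-2.91), TM4SF1 (-2.85) and GBX2, a homeobox gene of the mid-hindbrain border (-2.84), were next in size. Of these, FGFBP3 also fell against UNT, with 30.58, 28.75 and 28.24 CPM at FPM_IC50 and 42.34, 50.99 and 42.2 CPM in UNT (log2 -0.63, adjusted p = 0.00117). The 12 genes named for their increase were compared with the same UNT libraries in each exposure. Their log2 fold changes were 0.68 to 1.1 at FPM_IC50 and -6.04 to 0.32 at SRM_IC50. They were 0.3 to 1.06 at FPM_IC25 and -0.02 to 0.67 at SRM_IC25. ERVV-2 was 1.06 (adjusted p = 0.00487) and GPR78 0.72 (0.00828) at FPM_IC25, so such increases were not particular to FPM_IC50. TWIST2, at 0.32, was the 1 gene of the 12 above 0 at SRM_IC50, and the 1 without a difference between FPM_IC50 and SRM_IC50 (0.41, SE 0.21, adjusted p = 0.128).

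**Figure D5:**
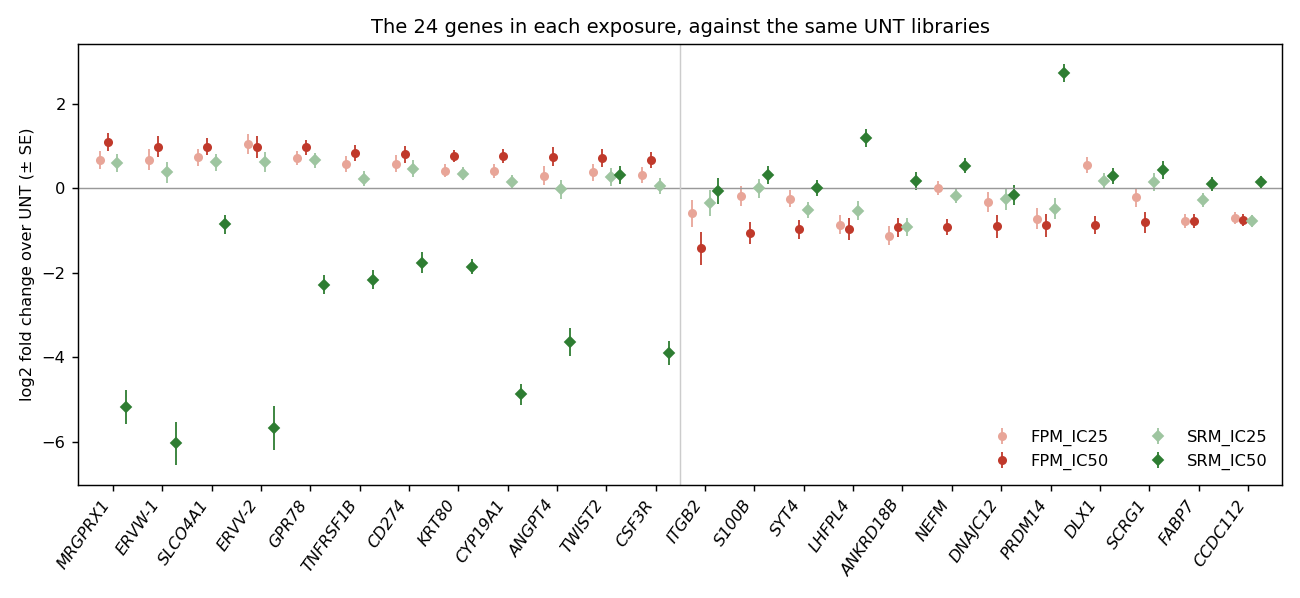
Log2 fold change over the same 3 UNT libraries (± SE) of the 12 genes named for their increase (left) and the 12 named for their decrease (right) at FPM_IC50, in all 4 exposures (circles, FPM; diamonds, SRM; pale, IC25; dark, IC50). CYP19A1 was 0.77 at FPM_IC50 and -4.88 at SRM_IC50, and PRDM14 was -0.87 at FPM_IC50 and 2.73 at SRM_IC50.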

How the data were processed

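Poly(A) RNA of H9 cells was sequenced in 15 directional libraries, in 5 groups of 3. The authors deposited raw counts by gene, without normalization. The tools, per the submitters' processing notes, were FastQC 0.11.7, HISAT2 2.2.1, SAMtools 1.10, featureCounts of Subread 2.0.15 and DESeq2, on GRCh38. Of the counting, the strand setting, the annotation release and the handling of multiply mapped reads are not given in the labels or notes used. A deposited table of FPKM values was not used.

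Counts were fitted with edgeR 4.0.16 (R 4.3.3) in a quasi-likelihood F test with TMM scaling, over all 15 libraries and 5 group means, on the 19012 genes kept by the expression filter, with Benjamini-Hochberg adjustment over them and a threshold of 0.05. Standard errors are the log2 fold change divided by the root of F. Members, gene lists and alternatives were chosen with earlier results of these data known. Opposite-strand neighbours came from GENCODE 29, which placed 57055 of 60675 genes. GENCODE and RefSeq coordinates are both of GRCh38. The script was tested on simulated counts. CPM is not scaled for length, so levels are not compared between genes, and the floor of 3 counts covers counting error only.

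The genes named were chosen by rule. They are the 12 higher and 12 lower called members with the largest changes, leaving out clones, antisense transcripts and pseudogenes, with groups that do not overlap and an opposite ratio under 0.1; the 4 each way with a ratio of 1 or more; up to 4 called members per list in 37 lists; 13 set markers; and the 5 largest each way against FPM_IC25 and against SRM_IC50. Others, such as HSP90AB1, ELAVL4, ZFP42 and MT-ND4L, stand outside these rules. They were named with their values known, and not all are marked so where they stand. Alternatives were DESeq2 1.42.0, its size factors, no expression filter, a replicate block, scaling from genes without an opposite-strand gene, a GC correction, fewer libraries, other member thresholds, and each library left out in turn.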

Additional observations from a re-analysis of the deposited data

Results flagged for a closer look

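FPM_IC50 and SRM_IC50 differed by a direct test for 23 of the 24 genes named for their change over UNT. Of all 8514 genes with little expression opposite, 37.9% differed. The 24 were picked by their FPM_IC50 values, which also enter this test, so the count is not independent evidence. The log2 differences of FPM_IC50 over SRM_IC50 among the genes that rose were 7.03 for ERVW-1, 6.66 for ERVV-2, 6.28 for MRGPRX1, 5.65 for CYP19A1, 4.57 for CSF3R and 4.38 for ANGPT4. They were 3.25 for GPR78, 2.99 for TNFRSF1B, 2.62 for KRT80, 2.57 for CD274 and 1.83 for SLCO4A1. Among the genes that fell they were -3.6 for PRDM14, -2.15 for LHFPL4, -1.46 for NEFM, -1.37 for S100B, -1.36 for ITGB2, -1.23 for SCRG1 and -1.16 for DLX1. They were -1.1 for ANKRD18B, -0.98 for SYT4, -0.9 for CCDC112, -0.87 for FABP7 and -0.74 for DNAJC12. The values of ERVW-1, ERVV-2 and MRGPRX1 depend on the prior count of the fit, as their SRM_IC50 levels were at or under the floor of 3 counts.

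Between the FPM doses, DLX1 differed by -1.41 and PRRX1 by -1.14 on the log2 scale, FPM_IC50 over FPM_IC25. Outside the members, 1627 of 4414 tested genes that missed 1 CPM in at least 1 UNT library were higher at FPM_IC50 (36.9%), and 8 were lower (0.181%).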

How the results depend on the processing

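Over all members 950 genes were called, against 1961 with a replicate block, 544 with only the compared libraries, 1914 with membership by the mean over 6 libraries, and 448 to 1393 with 1 library left out. For genes with little expression opposite 402 were called, against 984 with the replicate block, 623 with no expression filter, 262 with the GC correction, 167 with only the compared libraries, 151 among genes lacking any opposite-strand neighbour in 5 kb, and 119 to 665 with 1 library left out. Between the FPM doses 2 were called, against 34 with the replicate block, 39 with DESeq2, 98 with no expression filter, 4 with the GC correction, 0 with only the compared libraries, and 0 to 2 with 1 library left out. Against SRM_IC50 3231 were called, and every alternative stayed within 1.5 times of that, with 2652 to 3122 when 1 library was left out. The causes of these moves were not tested. No named gene's called change turned sign under any alternative run, but with scaling from genes without an opposite-strand gene the balance of directions turned: 632 higher and 211 lower over all members, 143 higher and 136 lower with little expression opposite, and 1740 higher and 1395 lower against SRM_IC50. That scaling moved the members' median log2 fold change by 0.067, to 0.037. Same-numbered FPM_IC50 and UNT libraries had correlations of their deviations of 0.23, 0.07 and 0.58. FPM_IC50 replicates 1 and 3 correlated best with the UNT library of their own number. FPM_IC50 replicate 2 correlated best with UNT replicate 1 (0.43). The main fit did not take the numbers as pairs, while the replicate block did. Whether libraries of the same number belong together was not tested. Depth limits genes near the floor of 3 counts, such as ITGB2.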

Other observations

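Of genes that belong to none of the lists, 4 that encode nucleolar proteins were picked because they fell at FPM_IC50, so they say nothing of nucleolar genes as a group. NPM1, which encodes nucleophosmin, was -0.53 on the log2 scale (adjusted p = 0.0105, edgeR). NOP58, a core protein of box C/D ribonucleoproteins, was -0.54 (0.00335), DDX21, an RNA helicase, -0.34 (0.00495), and NCL, which encodes nucleolin, -0.31 (0.0203). Genes that rose, also picked after their values were seen, included the interferon lambda receptor gene IFNLR1 (0.64, adjusted p = 0.0117), the TGF-beta receptor gene TGFBR2 (0.43, 0.0259) and the glucocorticoid receptor gene NR3C1 (0.38, 0.0332). Among 105 processed pseudogenes with little expression opposite, 7 fell (6.67%) and none rose, with a median of -0.332. Of all 8514 genes with little expression opposite, 3.97% fell and 0.752% rose. The median length of the longest transcript was 747 bases for these pseudogenes and 3918 bases for the 8514 genes. The part of length was not tested. PTMAP5 was at -2.19 (adjusted p = 0.0349), RPL7P9 at -1.32 (0.0105) and NPM1P27 at -0.87 (0.00165). Their reads may be shared with parent genes, so these values are uncertain.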
